A study of Mus musculus with 4 samples.

Results

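Convergent gene pairs are neighbours on opposite strands that run toward each other and overlap at their 3′ ends. They were chosen here by annotation alone, from the exon coordinates in the deposited gene tables. A pair was kept when both genes lay on an autosome, shared at least 50 exon bases, and the plus-strand gene started and ended before the minus-strand gene started and ended. Each gene had to belong to only 1 such pair. This gave 1193 pairs with 2386 genes, of 50600 genes in the tables. They were part of 4202 opposite-strand pairs sharing at least 50 exon bases, of which 1359 were divergent (head to head) and 1596 were nested. At the limit itself, 30 tail-to-tail pairs shared 50 to 59 bases, with a median summed mean count of 24.5, and 30 pairs shared 40 to 49 bases, with a median of 72.3.

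The study sequenced total RNA from primary T-helper 2 cells of C57BL/6NJ mice, in 4 libraries given as biological replicates 1 to 4. All 4 belong to 1 group, with no treatment, control or other cell type, and the labels give age and developmental stage as unknown. The labels carry a single donor record for the libraries and are silent on whether separate mice were used, so the p-values cover the spread among these libraries alone, and part of it may be technical. Values are whole fragment counts per gene on the strand selected by the counting.

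Transcription of a gene normally runs on past the site where its RNA is cut and polyadenylated, and the signal for that cut is most often the hexamer AATAAA or its variant ATTAAA shortly upstream of the RNA's end. Where tail-to-tail genes overlap, the same DNA is read on both strands, so the mature RNAs hold complementary stretches and only strand-marked libraries can assign fragments to the right gene. Convergent pairs of this kind are sources of natural antisense transcripts, and a long non-coding RNA annotated opposite a coding gene is a common form.

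The annotated 3′ ends of 4 pairs show the range of end sequences among the members. They are the pair with the most counts, the pair of Rhoa and the non-coding Gm37401 with its large ratio per base, the pair of the Th2 receptor gene Ptgdr2, and the pair of the signal transducers Stat5a and Stat3, which overlap only at their very ends. Each line gives 30 bases, 5′ to 3′ on the gene's own strand, from GENCODE M21 transcripts on mm10, with the hexamer in capitals where the last 50 bases hold one.
Phykpl, chr11:51604460-51604489, plus strand: tttaaatgtAATAAAaacaaaaccccgtct
Hnrnpab, chr11:51600100-51600129, minus strand: gttttcttaAATAAAttgagggagaccttg
Rhoa, chr9:108337905-108337934, plus strand: caactaatagAATAAAggcagttttctaaa
Gm37401, chr9:108337089-108337118, minus strand: gttaccaactgtttctctttctagaaagaa
Ptgdr2, chr19:10942475-10942504, plus strand: taccAATAAAcacctctgcaatagagcagg
Ccdc86, chr19:10941481-10941510, minus strand: aagATTAAAgtgttttaaaaggactgcttc
Stat5a, chr11:100885130-100885159, plus strand: tttgAATAAAgtttttgttggtttggtttt
Stat3, chr11:100885098-100885127, minus strand: cactgtttacataaatgttgagttctatgt
Phykpl, Hnrnpab, Rhoa, Ptgdr2, Ccdc86 and Stat5a carry a hexamer, and Gm37401 and Stat3 carry neither form in this window. The ends of Ptgdr2, Ccdc86, Stat5a and Stat3 lie inside an exon of the partner, as do those of Phykpl and Gm37401.

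Over all members, AATAAA or ATTAAA was found on the gene's own strand within the last 50 bases of 1466 of 2276 genes with a usable end (64.4%). For coding members it was 1183 of 1657 (71.4%), against 72.1% of all 19901 coding genes. On the reverse strand of the same windows, the hexamers were present in 14.5% of coding members and 12.1% of all coding genes. A match is a run of letters and was not tested as a site of cleavage.

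The pairs shared a median of 368 exon bases, with quartiles of 168 and 804 and a range of 50 to 4652. That was a median of 11.9% of the plus gene's exon length and 12.2% of the minus gene's. In 759 pairs the shared bases formed 1 block. Both annotated ends lay inside an exon of the other gene in 372 pairs, 1 end did in 443, and neither did in 378. By gene type, 648 pairs joined coding genes and 436 joined a coding gene to a long non-coding gene, while 63 joined long non-coding genes. In 250 of the 648 coding pairs the shared bases lay entirely downstream of both coding sequences, and in 391 they included coding sequence of at least 1 gene. Further genes overlapped many members: in 445 pairs a gene also shared exon bases with a further gene on the other strand, and in 148 with another gene on its own strand, leaving 681 pairs free of any further gene.

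**Figure D1:**
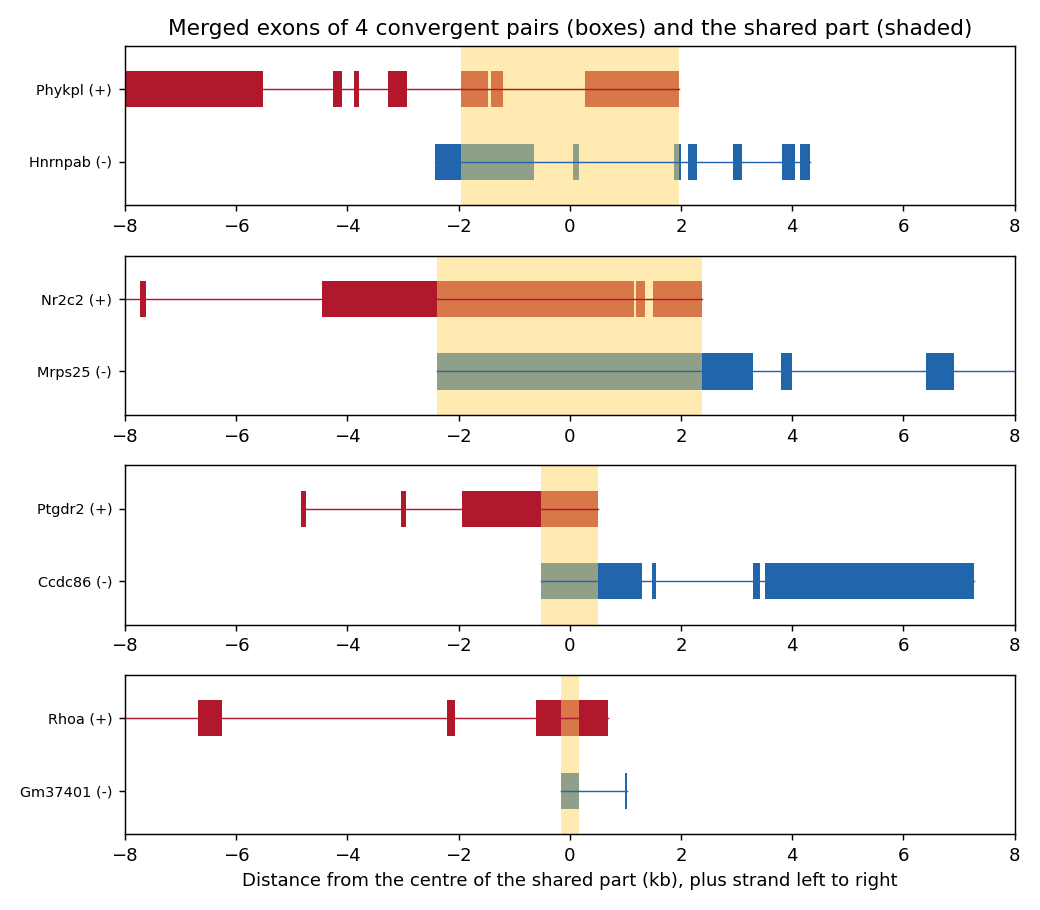
Merged exons (boxes) of 4 convergent pairs, drawn to scale against distance from the centre of the shared part in kb, with plus genes in red, minus genes in blue and the span of the shared part shaded. Ptgdr2 and Ccdc86 overlap in 1 block of 1031 bases, whereas Phykpl and Hnrnpab share 809 bases in several blocks. Gm37401 shares 93.4% of its exon bases with Rhoa, and the gene extends beyond the end of Rhoa.

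The libraries held 1804217, 1846441, 2711948 and 2169955 counts in replicates 1 to 4, and a gene at 0 could still have had up to 3 counts, which is 1.11 to 1.66 CPM (counts scaled to the library total). The total of replicate 3 was raised by a single gene, CT010467.1, with 776235 counts there against 18450 in replicate 1. Replicates 1 and 2 were the most alike, with a chi-square per degree of freedom of 2.25, and no library was taken for a copy of another. Of the T cell markers, 9 genes summed to between 1121 and 1497 counts, most of them in Cd247, and the 5 Th2 markers summed to between 219 and 292, most of them in Ptgdr2. Il13 and Il5 had at most 1 count in any library. B cell markers summed to at most 15 counts and neutrophil and NK cell markers to 0, CD8 markers to at most 4 and erythroid markers to between 31 and 39, all in Alas2. The macrophage list summed to between 999 and 1039, almost all in Csf1r, with Lyz2 and Adgre1 at 0. Cd247, Ptgdr2 and Csf1r are themselves genes of convergent pairs.

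The strand bears on every value below. On the mitochondrial genome, the light-strand gene mt-Nd6 held between 35801 and 49430 counts per library, and the 12 heavy-strand coding genes together held between 4207 and 7040. The authors counted with strand setting 1, and whether that setting fits the library chemistry was not tested. A count given for a gene is therefore the number of fragments assigned to its annotated strand, and is not read here as that gene's expression.

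Genes of convergent pairs took a large part of the counts. They made up 4.72% of all genes, with 8.94% of all exon bases. Of the genes with a count, a mean of 1872.5 of 13521.5 per library were members. Members held 48.7%, 47.4%, 34.0% and 39.6% of the counts of replicates 1 to 4 (42.4% ± 6.90, SD, n = 4). Replicates 3 and 4, which had the most CT010467.1, were the low libraries. Without CT010467.1 and the mitochondrial genes, the share was 50.4%, 49.1%, 49.1% and 47.4% (SD 1.22, n = 4), so the libraries lay closer together. Of the counts of all members, the 8 pairs with the most counts held 17.6%, 17.5%, 18.2% and 17.2%, and the top 100 pairs held between 55.0% and 56.6%. At the other end, 135 pairs had no count in either gene. The share of counts in genes of divergent or nested pairs is not given here.

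Within a pair, 1 gene nearly always took most of the counts. Each pair was tested as plus gene against minus gene within a library, per exon base, with edgeR's quasi-likelihood test over all opposite-strand pairs, the library as a block and Benjamini-Hochberg adjustment at 0.05. Of the 1193 pairs, 866 had enough counts to be tested and 327 did not. The plus gene was called higher in 430 pairs (49.7%) and the minus gene in 389 (44.9%), so 819 of 866 were called (94.6%), and 47 were not. This share is that of the background: 94.4% of all 2494 tested opposite-strand pairs were called, 48% with the plus gene higher and 46.4% with the minus gene higher. Divergent pairs gave 93.2% and nested pairs 95.2%. Among the 681 pairs free of any further gene, 426 of 449 tested were called (94.9%).

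**Figure D2:**
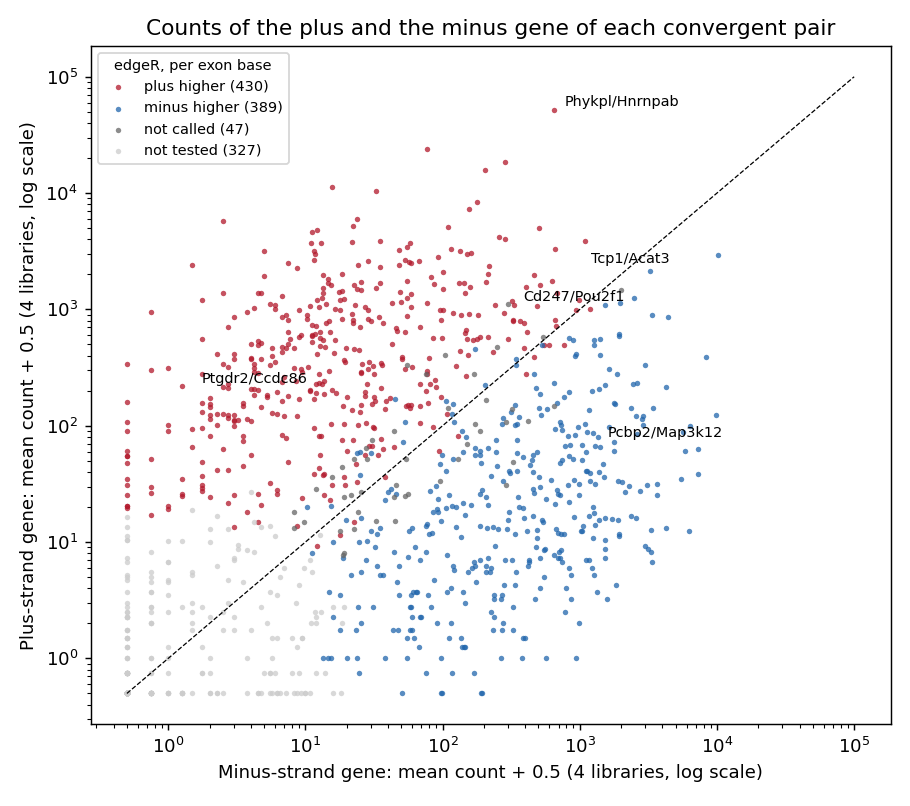
Mean count + 0.5 over 4 libraries of the plus gene (vertical, log scale) against that of the minus gene (horizontal, log scale) for each convergent pair, coloured by the edgeR call per exon base; the dashed line marks equal counts. Most of the 866 tested pairs lie far from the line. Per exon base, 430 were called with the plus gene higher and 389 with the minus gene higher. The line is at equal raw counts, so a call need not match the side of the line.

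The median ratio of counts, higher gene to lower gene, was 20.2 over the tested pairs. It was at least 2 in 782 pairs (90.3%), at least 10 in 530 (61.2%) and at least 100 in 159 (18.4%). In 19 pairs the lower gene had no count in any library. The gene with more counts per base was the same in all 4 libraries in 838 of 866 pairs, and the median SD of the log2 ratio over libraries was 0.50. When the higher gene was chosen from the other 3 libraries, it was also higher in the library left out in 856, 854, 854 and 851 pairs for replicates 1 to 4, of 866 pairs, or 865 in replicate 3. It held a median of 95.4%, 94.4%, 95.1% and 96.3% of the pair's counts there (95.3% ± 0.781, SD, n = 4). Summed over pairs, the lower genes held 7.42%, 7.48%, 7.44% and 7.17% of the counts.

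The divergent and nested layouts gave similar shares to the higher gene, with medians of 95.8% and 97.7%. Their other medians differed more: the summed mean count of a pair was 174 for convergent, 46 for divergent and 19.5 for nested pairs, and the size of the log2 ratio per base was 4.55, 5.21 and 7.54. These differences between layouts are descriptions and were not tested, since a gene can belong to pairs of several layouts.

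The pair with the most counts was Phykpl/Hnrnpab on chromosome 11, where the shared part runs over chr11:51600569-51604489 in mm10 and covers 29.1% of the exon bases of Hnrnpab. Phykpl encodes a phospho-lyase of hydroxylysine breakdown, and Hnrnpab an abundant RNA-binding protein. Phykpl had 51364, 49881, 55653 and 50552 counts in replicates 1 to 4, and Hnrnpab had 480, 512, 598 and 995. No library of one gene overlapped those of the other, and Hnrnpab was highest in replicate 4. That was 80.3 times the counts and 24.1 times the counts per exon base, a log2 ratio of 4.59 (SD of the log2 ratio over libraries 0.49, n = 4; edgeR adjusted p = 2.18e-06).

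A ribosomal protein gene was the lower gene of another of the pairs with the most counts. Tlcd1, a membrane protein gene, had 17954, 18030, 18026 and 19631 counts opposite Rpl23a, a protein of the large ribosomal subunit, which had 310, 347, 368 and 108. Replicate 4 was the lowest library of Rpl23a, while Tlcd1 was highest there. The log2 ratio of plus to minus was 3.57 (SD 0.89), with edgeR adjusted p = 3.75e-05.

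In 3 further pairs among the 8 the higher gene was an unnamed plus-strand gene. 1810014B01Rik had 16283, 15484, 18184 and 13400 counts opposite Hsp90b1, a chaperone of the endoplasmic reticulum, with 212, 235, 270 and 101. Gm10143 had 10657, 11693, 11406 and 11194 opposite Fen1, the flap endonuclease of DNA replication, with 20, 18, 14 and 9. Gm26582 had 10537, 10011, 11780 and 9309 opposite G3bp2, a stress granule protein, with 50, 39, 32 and 7. The named coding gene was lowest in replicate 4 in each of these pairs, and the log2 ratios were 6.95, 9.08 and 9.94 (edgeR adjusted p at most 6.91e-07).

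**Figure D3:**
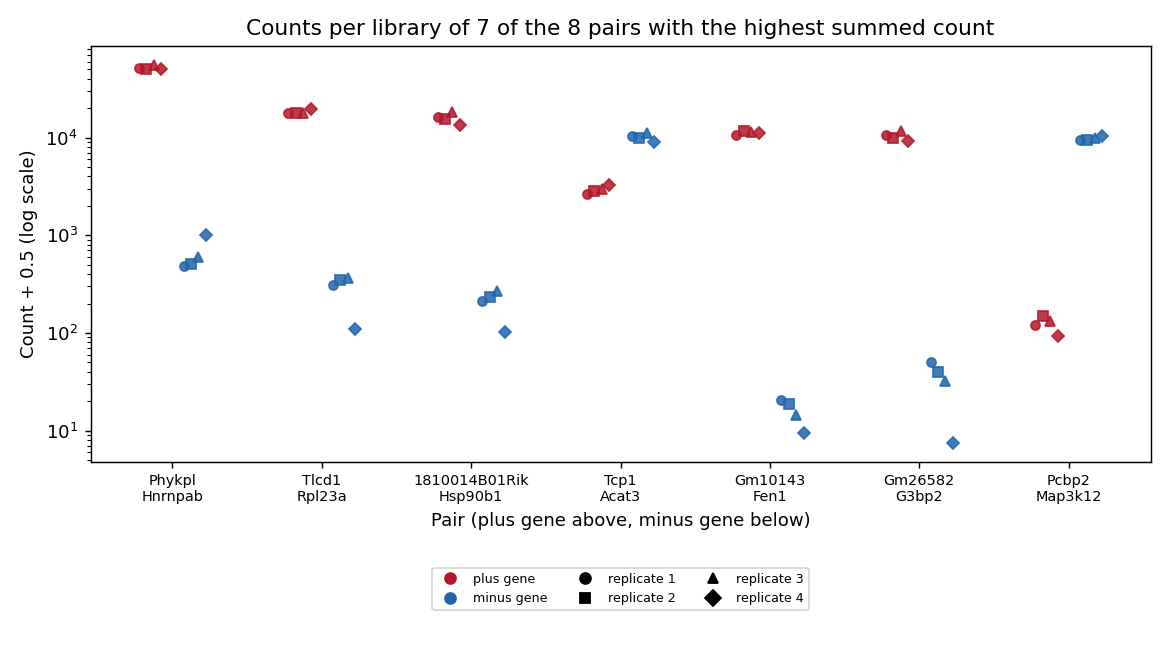
Count + 0.5 (log scale) of the plus gene (red) and the minus gene (blue) in each library for 7 of the 8 pairs with the highest summed count, with symbols for replicates 1 to 4. The 2 genes of a pair do not overlap in any of the 7, and Tcp1/Acat3 has the smallest gap.

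The minus gene was the higher in the last 2 of the 8. Map3k12, a kinase of the stress-activated cascades, had 9451, 9482, 9841 and 10330 counts, and Pcbp2, a poly(C)-binding protein, had 120, 147, 132 and 93. Acat3, an acetyl-CoA acetyltransferase, had 10280, 9824, 11261 and 9033, and Tcp1, a subunit of the cytosolic chaperonin, had 2640, 2822, 2948 and 3244. Both genes of Tcp1/Acat3 thus had over 1000 counts in every library. The log2 ratios of minus to plus were 4.68 (SD 0.33) for Pcbp2/Map3k12 and 2.89 (SD 0.22) for Tcp1/Acat3 (edgeR adjusted p = 5.50e-07 and 2.79e-06).

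High counts on both strands were uncommon. Only 8 pairs had a mean of at least 1000 counts in each gene, a group picked after the values were seen. Exosc9, of the RNA exosome, had 4449, 3886, 3971 and 3256, and Ccna2, cyclin A2, had 1187, 1040, 1164 and 958. Echdc1 and Rnf146 were close, with 1357, 1542, 1550 and 1385 against 1993, 1937, 2287 and 1721, and were not called (edgeR adjusted p = 0.0768). Cox20 and Hnrnpu overlapped in their raw counts, with 1120, 791, 984 and 1117 against 1136, 1224, 1366 and 1048, but Cox20 has 883 exon bases against 11599 and was called higher per base (log2 ratio 3.46). Usp34/Ahsa2, Loxl3/Htra2 and Krr1/Glipr1 also belonged to this group, each called with the minus gene higher. At a lower limit of 100 counts in each gene there were 148 pairs, of which 135 were called. Without any such limit, 94.4% of all 2494 tested opposite-strand pairs were called. How many divergent or nested pairs reach either limit is not given here.

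The pairs with the longest overlap did not share counts evenly either. Pstk, a kinase acting on a transfer RNA of selenocysteine, and Ikzf5, an Ikaros family zinc finger gene, shared 4652 bases, 58.8% and 81.3% of their exon lengths. Pstk had 1457, 1375, 1576 and 1385 counts, and Ikzf5 had 13, 19, 24 and 16. The log2 ratio was 5.87 (SD 0.33; edgeR adjusted p = 2.44e-07). Mrps25, of the mitochondrial ribosome, had 2414, 2406, 2621 and 2325 counts opposite the nuclear receptor gene Nr2c2, with 239, 220, 234 and 217, over 4590 shared bases. The 4 libraries lay close together in that pair, with a log2 ratio of 4.61 toward Mrps25 (SD 0.064; edgeR adjusted p = 2.38e-07).

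Tmc3, a transmembrane channel-like gene, and the long non-coding Gm16638 shared 3961 bases but held few counts. Tmc3 had 25, 27, 38 and 31, and Gm16638 had 7, 13, 17 and 23. No value of Gm16638 reached the lowest of Tmc3, and the log2 ratio was 1.11 (SD 0.55; edgeR adjusted p = 0.0169). Without replicate 1, 2 or 3 the log2 ratio was 0.91, 1.12 and 1.08, and the pair was not called (edgeR adjusted p = 0.0833, 0.0556 and 0.0682). Without replicate 4 it was 1.33, and the pair was called (edgeR adjusted p = 0.000947).

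Longer overlaps went with more counts. In the lowest of 4 tiers, pairs with 50 to 167 shared bases, the median mean count was 48.5 for the higher gene and 3.75 for the lower. It was 95.5 and 4.5 for 168 to 367 bases, 227 and 7 for 368 to 800, and 504 and 15.1 for 804 to 4652. The higher gene's median exon length was 2831 and 2522 bases in the lower tiers and 3074 and 4714 in the upper. Across the 866 tested pairs, Spearman's rho of the higher gene's mean count was 0.33 with shared bases and 0.082 with its own exon length, and rho between the counts of both genes of a pair was 0.48. These are descriptions across pairs, which share the same libraries and depth.

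Coding pairs were described separately by where the overlap falls. Where it lay downstream of both coding sequences, 177 of 198 tested pairs were called (89.4%), the median mean counts were 121 for the higher and 13.9 for the lower gene, and the higher gene held a median of 87.6% of the counts. Where it included coding sequence, 329 of 346 were called (95.1%), with medians of 468 and 21.8 counts and 94.4%. The median overlap was 206 bases in the first group and 535 in the second. Of all tested coding pairs, 511 of 550 were called, and of all tested opposite-strand pairs, 94.4%. The groups thus differ in counts and in length of overlap as well as in its place. The difference between the groups was not tested.

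In pairs of a coding and a long non-coding gene, the non-coding gene was usually the higher. Among 290 tested pairs of this kind it was called higher in 267 (92.1%), the coding gene in 16, and 7 were not called. Over all such opposite-strand pairs, whatever the layout, the non-coding gene was called higher in 88% and the coding gene in 8.35% of 1257. Divergent pairs had 357 of 418 (85.4%) and nested pairs 469 of 535 (87.7%) with the non-coding gene higher. In pairs free of any further gene, the convergent counts were 124 and 4. The direction holds for the strand setting used, and the tables cannot be recounted with the other.

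Among called pairs with at least 10 counts of each gene in each library, the 3 largest ratios per base each way were all of this kind. Gm43126, with 429 exon bases, had 3546, 3603, 3875 and 2734 counts opposite Ccnd2, the cyclin D2 gene, with 62, 77, 66 and 13 (log2 ratio 10.58, SD 0.97). Gm19710 had 2360, 2296, 2524 and 2390 opposite Ubap2l, an RNA-binding protein gene, with 50, 64, 60 and 18 (9.94, SD 0.84). Gm26787 had 1081, 998, 1263 and 823 opposite Ei24, of autophagy, with 12, 11, 15 and 10 (9.41, SD 0.071). All 3 non-coding genes were far above the partner in every library.

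On the minus side, the non-coding Gm37401 has 347 exon bases, of which 93.4% are shared with Rhoa, a small GTPase of the cytoskeleton. Gm37401 had 2403, 2360, 2073 and 1779 counts, and Rhoa had 25, 44, 24 and 12. Gm15884 had 7286, 7267, 7613 and 6836 opposite Phb2, prohibitin 2 of the mitochondrial inner membrane, with 26, 62, 52 and 13. Gm20496 had 5336, 5394, 5797 and 5381 opposite Psmb8, an immunoproteasome subunit, with 43, 30, 37 and 28. The log2 ratios of minus to plus were 10.86, 10.23 and 9.36, and the edgeR adjusted p was at most 4.56e-07 in these 6 pairs.

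The exceptions, with the coding gene higher, were picked out after the values were seen. Cog4, of the Golgi tethering complex, had 1143, 1209, 1148 and 897 counts opposite Gm26816, with 258, 240, 248 and 217. Kif3c, a kinesin motor, had 1093, 928, 986 and 928 opposite 1110002L01Rik, with 66, 88, 85 and 145. Mcmdc2, a meiotic relative of the replicative helicase subunits, had 384, 322, 305 and 235 opposite Snhg6, a small nucleolar RNA host gene, with 3, 9, 3 and 0. The libraries of the 2 genes did not overlap in these pairs, and the log2 ratios were 1.46, 2.56 and 4.05. Hspa1l, a heat shock protein of the testis, had 158, 153, 157 and 162 opposite Gm10501, with 0, 1, 2 and 2.

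Few pairs with ample counts were balanced per base. Cog1, of the same Golgi complex, had 514, 483, 478 and 433 counts, and Fam104a had 229, 234, 253 and 275. Their log2 ratio per base was 0.017 (SD 0.22; edgeR adjusted p = 0.925). Rell2 had 104, 82, 111 and 119 and Fchsd1 had 154, 162, 165 and 212, a log2 ratio of -0.025 (adjusted p = 0.897, edgeR). Med19, of the Mediator complex, had 150, 172, 141 and 87, and the palmitoyltransferase gene Zdhhc5 had 316, 344, 329 and 288, a log2 ratio of 0.044 (adjusted p = 0.8292, edgeR). In raw counts, the 2 genes of each of these pairs did not overlap. The balance per base therefore rests on the division by exon length.

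T cell genes were found in 7 pairs, holding 8 genes of a list of T cell and Th2 genes. Of these 8, 4 were called higher than the partner, 3 lower and 1 was not called. Stat5a and Stat3 form 1 pair, so its single test gives 1 of the higher and 1 of the lower genes. By genes, 7 of 8 were called, where 94.4% of all opposite-strand pairs were. Of coding genes of convergent pairs, 37.8% were called higher than the partner and 56.2% lower. The median log2 ratio of gene to partner was 1.16. Cd247, which encodes the signalling CD3 zeta chain, had 1204, 1148, 1310 and 1073 counts, and Pou2f1, the transcription factor Oct-1, had 350, 346, 299 and 289. The log2 ratio was 3.52 (SD 0.18; edgeR adjusted p = 5.89e-07), over 3007 shared bases. Ptgdr2, the prostaglandin D2 receptor CRTH2 that marks Th2 cells, had 196, 223, 212 and 170, and Ccdc86, a nucleolar protein gene, had 10, 16, 7 and 8 (log2 ratio 5.42, SD 0.44; edgeR adjusted p = 6.78e-07). Both of these T cell genes were above the partner in all 4 libraries.

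Junb, an AP-1 factor induced in Th2 cells, had 207, 177, 192 and 170 counts, and Prdx2, a peroxiredoxin, had 27, 23, 31 and 21. The log2 ratio of Junb to Prdx2 was 3.28 (SD 0.17; edgeR adjusted p = 2.31e-06). Stat5a and Stat3, which carry cytokine signals to the nucleus, overlap by 72 bases, shown above with their end sequences. Stat5a had 22, 21, 21 and 7, and Stat3 had 87, 93, 56 and 103. Stat3 was higher in each library, with a log2 ratio of 1.85 (SD 1.03; edgeR adjusted p = 0.0031), and replicate 4 stood apart from the others in Stat5a.

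Other T cell genes were the lower gene or were not called. Themis, a thymocyte selection gene, had 5, 11, 4 and 0 counts opposite 4930519F09Rik, annotated as a pseudogene, with 149, 140, 159 and 164. The log2 ratio toward 4930519F09Rik was 7.996 (SD 2.03; edgeR adjusted p = 4.65e-06) and 8.71 without replicate 2. Il12rb2, a chain of the interleukin-12 receptor known from Th1 cells, had 111, 100, 117 and 87, and Serbp1, an mRNA-binding protein gene, had 434, 492, 476 and 229. Serbp1 held more counts in every library, but with its longer exon length the log2 ratio per base of Il12rb2 to Serbp1 was 0.48 (SD 0.38; edgeR adjusted p = 0.0502).

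**Figure D4:**
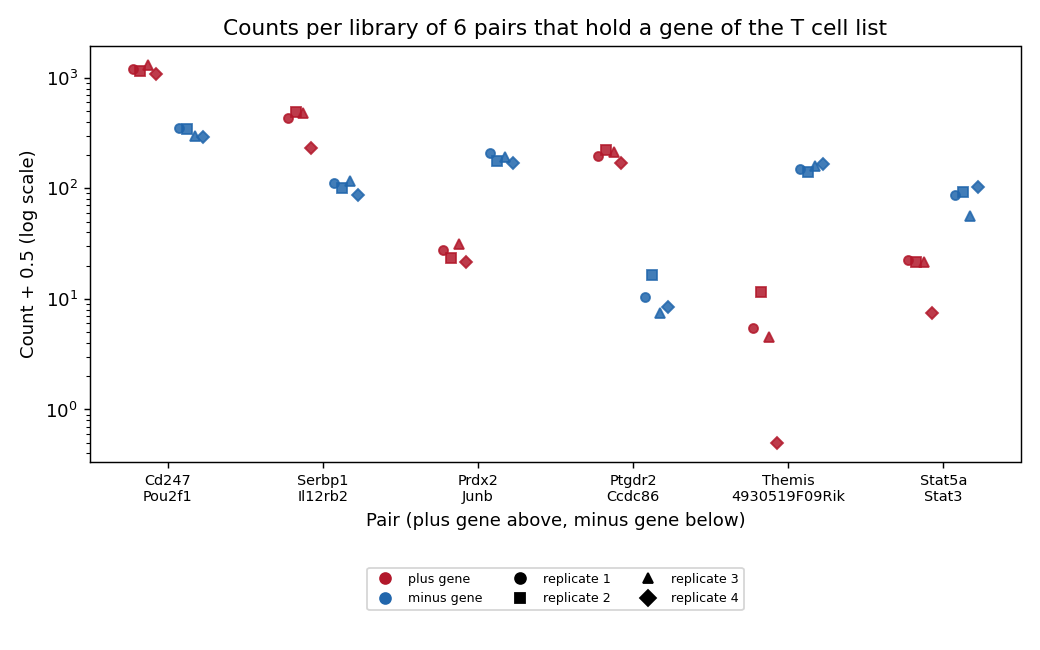
Count + 0.5 (log scale) of the plus gene (red) and the minus gene (blue) in each library for 6 pairs that hold a gene of the T cell list, with symbols for replicates 1 to 4. In each pair the 2 genes do not overlap in raw counts, and Themis is at 0 in replicate 4.

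Coding genes as a whole were more often the lower gene of their pair, and the gene groups below are given beside that share. Of 1401 tested coding genes of convergent pairs, 529 were called higher than the partner (37.8%) and 787 lower (56.2%). Their median log2 ratio to the partner was -1.56. Each called pair of coding genes, of which there were 511, adds 1 gene to either side. The excess of lower genes thus comes from pairs with a partner of another type, mostly the long non-coding genes described above. The groups were taken by gene symbol alone, so a group can hold genes with other roles. How many partners in each group below are non-coding is not given. No group was tested against these shares of coding genes. The calls are those of the edgeR test per base described above, and the examples are those with the highest summed counts, chosen after the values were seen. Of 10 ribosomal protein genes, 2 were higher, 7 lower and 1 was not called (median log2 ratio to the partner -1.89). Rps25 was a higher one, with 750, 817, 906 and 752 counts against 369, 352, 291 and 288 for Ccdc84. Of 20 genes of RNA processing, 5 were higher and 15 lower (median -3.20). Srsf4, a splicing factor, had 322, 368, 497 and 384 against 7737, 8094, 8272 and 9430 for Gm12992. Prpf39, also of splicing, was higher, with 3254, 3008, 3098 and 2887 against 168, 185, 158 and 135 for Fkbp3.

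Of 6 genes with Eif or Eef symbols, listed under translation, 5 were higher and 1 was not called (median 2.48). Eif2ak1, the heme-regulated kinase of eIF2, had 1994, 2120, 1768 and 1737 counts against 87, 86, 76 and 79 for Aimp2. Eif5b, which joins the ribosomal subunits, had 1213, 1134, 1250 and 964 against 74, 73, 70 and 89 for Rev1. The partners of both were coding genes with fewer than 100 counts in each library. Of 8 mitochondrial ribosomal protein genes, 4 were higher and 4 lower (median -0.22), and of 10 genes of the respiratory chain list, 5 and 5 (median -1.96). Mrpl47 had 2503, 2513, 2667 and 2531 against 123, 117, 124 and 116 for Actl6a, and Cox5a, a cytochrome oxidase subunit, had 7, 10, 4 and 4 against 3890, 3704, 2976 and 2866 for Gm26631.

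Of 16 tested genes of the ubiquitin and proteasome list (19 members), 3 were higher, 11 lower and 2 were not called (median -3.32). Psmb7, a proteasome subunit, had 19, 12, 15 and 1 counts against 5005, 4990, 5014 and 4251 for Nek6. Of 27 tested genes of replication and the cell cycle (28 members), 10 were higher, 14 lower and 3 were not called (median -0.60). The list holds both genes of Kif20a/Cdc23, a mitotic kinesin opposite a subunit of the anaphase-promoting complex. Cdc23 had 3391, 3277, 3694 and 3146, and Kif20a had 947, 873, 950 and 811, a log2 ratio of 0.59. Ccnd3, cyclin D3, had 118, 108, 90 and 84 against 3019, 3115, 2654 and 2730 for Bysl.

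Zinc finger and chromatin genes are set here beside the 56.2% of coding genes called lower. Of 23 tested zinc finger genes (29 members), 3 were higher and 20 lower (median -4.28), and of 7 chromatin genes, 1 and 6 (median -5.96). Chd8, a chromatin remodeller, had 111, 78, 109 and 106 counts against 1526, 1487, 1554 and 1419 for Gm26590. Smarcd3, of the BAF remodelling complex, was the higher chromatin gene, with 716, 748, 775 and 860 against 1, 4, 1 and 2 for Chpf2. Of 20 tested solute carrier genes (26 members), 8 were higher, 11 lower and 1 was not called (median -1.40). Slc6a20b, an amino acid transporter, had 3124, 2983, 3402 and 3058 against 13, 13, 7 and 0 for Sacm1l. Genes with predicted or clone names (Gm and Rik), many of them non-coding, had 276 of 327 tested (624 members) higher, 42 lower and 9 not called (median 6.45).

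The gene with fewer counts of a called pair more often carried a hexamer at its annotated end. AATAAA or ATTAAA was present in the last 50 bases of 453 of 785 genes with more counts (57.7%) and of 598 of 768 genes with fewer (77.9%). Among coding genes it was 320 of 508 (63.0%) and 579 of 730 (79.3%). Gm37401 and Rhoa, printed above, are of this form, whereas Phykpl and Hnrnpab both carry AATAAA. The difference was not tested, and the coding members as a whole had the share of all coding genes.

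In replicate 4, the lower gene of a pair was behind its partner by more than usual more often than in the other libraries. For this, the same 552 pairs were followed in every library, those with a mean of at least 10 counts over the 4 libraries in each gene. The log2 ratio of higher to lower gene was more than 1 above the mean of the other 3 libraries in 105 pairs in replicate 4 (19.0%), against 7, 5 and 9 in replicates 1 to 3. It was more than 1 below that mean in 12 pairs in replicate 4 and in 17, 52 and 24 in replicates 1 to 3. In CPM without CT010467.1, 108 of 552 lower genes were more than 1 log2 unit below the other libraries in replicate 4 (19.6%), and 12 of 896 higher genes were (1.34%). With CT010467.1 in the total these were 115 (20.8%) and 12. Of 2465 genes above the same mean count whose exons met none on the other strand, 1255 were that much lower in replicate 4 (50.9%), and of all 6081 genes, 1620 (26.6%). In replicates 1 to 3 the share of lower genes was between 0.362% and 1.63%. The limit first planned, a minimum of 10 counts in every library but the one examined, takes different genes for each library and gave 89 of 489 lower genes in replicate 4 (18.2%). The RNA quality of replicate 4 is not given in the labels, and its part in these values was not tested.

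**Figure D5:**
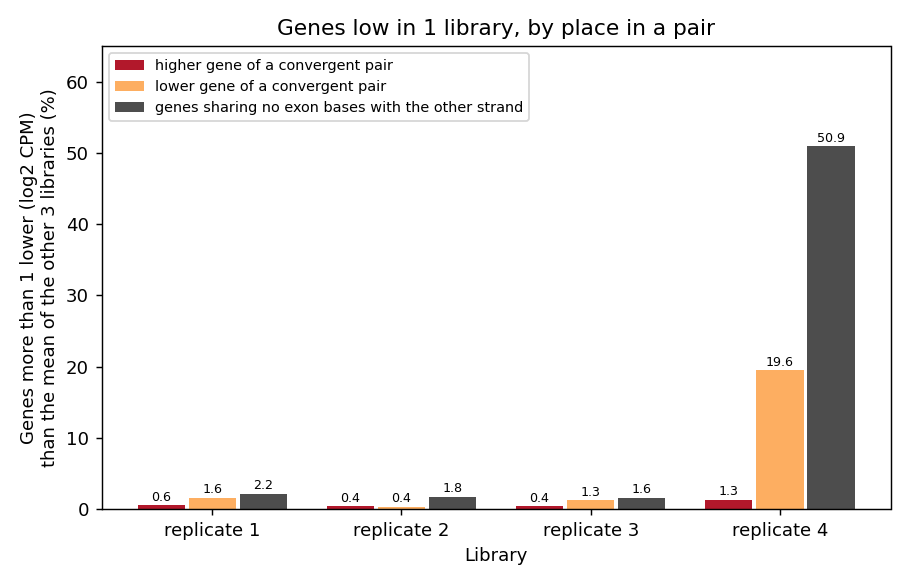
Percent of genes whose log2 CPM (totals without CT010467.1) were more than 1 below the mean of the other 3 libraries, by library, for the higher gene of a pair (red), the lower gene (orange) and genes sharing no exon bases with the other strand (grey), the same genes in every library (mean count of at least 10). Replicate 4 has 1.34%, 19.6% and 50.9%, and the other libraries have at most 2.19% in any set.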

How the data were processed

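The authors deposited 1 table of raw counts per library: per the file headers, fragments were counted with featureCounts 1.4.6-p4 over exons of GENCODE M13 genes, with strand setting 1. The labels give mm10. The assay is labelled total RNA-seq, yet the linked protocol is named for poly(A) RNA, and header paths name a time point found in no label. Groups and replicate numbers came from the labels.

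Exons were merged per gene from the tables. The pair test used edgeR 4.0.16 (R 4.3.3): 1 row per opposite-strand pair, plus and minus gene in each library, library as a block, offsets for the library total and exon length, filterByExpr, and Benjamini-Hochberg adjustment over all rows. Rows can share a gene. The block comes from the design, since both genes of a row come from 1 library. Alternatives were DESeq2 1.42.0, limma 3.58.1 on log2(TPM + 0.1), no length offset, other filters, TMM factors, no replicate block, and other membership limits. The limit to pairs free of further genes, the totals without CT010467.1 for deviations of 1 library, the change of a pair's ratio in 1 library and its limit on mean counts were added after seeing the data. Log2 ratios per library have a prior count of 0.5. The test was tested on simulated counts. Gene types, coding sequence and end sequences came from GENCODE M21, matched by gene ID for 2381 of 2386 genes. Python 3.11.15 and scipy 1.17.1 were used.

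Pairs named were the 8 with the most counts, the 4 with most shared bases (summed mean count at least 10), the 3 largest ratios each way (at least 10 counts of each gene in each library), the 3 ratios nearest 1 (mean of at least 100 in each gene), and up to 6 holding a T cell gene. Some pairs that the rule names are not reported here. Members, gene lists and tests were chosen with earlier results of these data known.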

Additional observations from a re-analysis of the deposited data

Results flagged for a closer look

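In 2 of 31 values checked over the 4 libraries, replicate 4 lay far from the other 3, and chance alone sets about 1 in 20 such values apart. The log2 ratio per exon base of Tlcd1/Rpl23a was 4.94 in replicate 4 and between 3.05 and 3.29 in the others. That of Gm43126/Ccnd2 was 12.12 in replicate 4 and between 9.99 and 10.32 in the others. Without replicate 4 the edgeR log2 ratios were 3.16 and 10.20, and both pairs stayed called.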

How the results depend on the processing

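Against 430 and 389 pairs called with the plus and the minus gene higher, DESeq2 gave 430 and 389, limma 431 and 394, TMM factors 431 and 392, no length offset 427 and 385, no replicate block 425 and 390, no filter 461 and 428, a summed mean count of at least 50 386 and 355, at least 200 shared bases 312 and 301, and genes in several pairs 436 and 409. In pairs free of any further gene, fewer pairs were tested by construction: 222 and 204 were called, and the non-coding gene was higher in 124 and the coding gene in 4. A summed mean count of at least 50 left 9 pairs with the coding gene higher. Leaving out 1 library gave 420 to 435 and 384 to 392 calls, 267 to 269 and 14 to 16 for the non-coding and coding gene, a share of all counts of 40.3% to 45.2%, and a median share of the higher gene of 95.0% to 95.6%. With at least 200 shared bases that median was 96.2%.

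For the named pairs, 2 directions reversed to a call, both without the length offset: Med19/Zdhhc5 at -1.25 and Serbp1/Il12rb2 at 1.93 (edgeR adjusted p = 0.000393 and 4.64e-05). Without it, Cog1/Fam104a (0.95) and Rell2/Fchsd1 (-0.74) were also called, and Serbp1/Il12rb2 was called with TMM factors (edgeR adjusted p = 0.0498). When 1 library was left out, the 3 pairs with ratios nearest 1 changed sign, uncalled: Cog1/Fam104a lay between -0.056 (without replicate 1) and 0.11, Rell2/Fchsd1 between -0.082 and 0.054 (without replicate 2), and Med19/Zdhhc5 between -0.043 (without replicate 2) and 0.20. The replicate block changed no call of a named pair. In all, 27 called pairs had the opposite direction in raw counts, 11 of them called there too. The floor given for genes without counts covers counting error only, and pairs with few counts could not be tested at this depth.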
